A study of Homo sapiens with 6 samples.

Results

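The genes described here are 9 that encode steroid receptors and enzymes of oestrogen metabolism: ESR1, ESR2, PGR, NR3C1, NR3C2, CYP19A1, HSD17B1, HSD17B2 and STS. They were chosen by name for their function, out of the 60660 genes in the count files, and 5 of them had enough counts to be among the 15155 genes tested. RNA came from 12Z, an immortalised epithelial cell line from an endometriosis lesion, grown with fetal calf serum and with no hormone among the listed treatments. After 72 h, transfection with a non-targeting control siRNA gave 3 control libraries, and transfection with 10 nM of the siRNA LINC01133a, which targets the long noncoding RNA LINC01133, gave 3 LINC01133 knockdown libraries. The RNA-sequencing rests on 1 cell line and 1 targeting siRNA, so effects of that oligonucleotide other than loss of LINC01133 cannot be told apart from the knockdown. Libraries were poly(A) selected, so levels are of polyadenylated RNA and not of protein or hormone.

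Steroid receptors are transcription factors that are held by chaperones until a steroid binds, then enter or act in the nucleus and regulate genes together with coactivators and corepressors. ESR1 and ESR2 encode the oestrogen receptors, PGR the progesterone receptor, NR3C1 the glucocorticoid receptor and NR3C2 the mineralocorticoid receptor. Endometrial tissue grows in response to oestrogen and is restrained by progesterone, and endometriosis is known as an oestrogen-dependent disease in which lesions can make oestrogen themselves. CYP19A1 encodes aromatase, which makes oestrogen from androgen. HSD17B1 turns weak oestrone into potent oestradiol and HSD17B2 turns it back, while STS (steroid sulfatase) frees oestrone from its sulfated store.

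Because a single siRNA was used, its sequence and its matches in the transcripts are shown first. Each strand of an siRNA can also pair with other RNAs through its seed, bases 2 to 8, mostly in 3′ UTRs. In the lines that follow, capitals mark the seed of the antisense (guide) strand and, in the transcripts, the matching letters AGAATGG. The target in LINC01133 (GRCh38, chr1:159976669-159976687, plus strand) is held by 3 of 5 annotated LINC01133 transcripts. NR3C1, STS and NR3C2 are shown because they were tested and held the match in their 3′ UTRs. The sites in NR3C1 (chr5:143281861-143281887, minus strand), STS (chrX:7353870-7353896, plus strand) and NR3C2 (chr4:148080717-148080743, minus strand) are read 5′ to 3′ along the transcript.
Guide strand of LINC01133a: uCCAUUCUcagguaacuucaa
Target in LINC01133: gaagttacctgAGAATGGa
NR3C1 3′ UTR: tgccttaataAGAATGGttgccttaaa
STS 3′ UTR: taatgcctagAGAATGGgatgtgtgat
NR3C2 3′ UTR: ttatttaattAGAATGGataagatgat

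The guide seed match occurred in the 3′ UTR of 5 of the 9 genes, these 3 and ESR2 and CYP19A1, and not in ESR1, PGR, HSD17B1 or HSD17B2, whose 3′ UTRs were taken from 1 transcript a gene. In NR3C1 the match began 12 bases after the stop codon, and in STS 3619 bases after it. Of 12536 tested genes with an annotated 3′ UTR, 17.1% held this match. The match was followed by A in 5.78% of those genes and, among the 9, in NR3C2, ESR2 and CYP19A1. The sense strand carries the seed AAGUUAC, whose match GTAACTT was present in NR3C1, STS, NR3C2 and PGR and in 13.6% of the tested genes. The genes differ in 3′ UTR length, from 98 to 9492 bases, and a longer 3′ UTR has more places for a match. NR3C1 and STS each held 1 match to either strand, and their levels moved in opposite directions in the knockdown libraries, as described next. Their matches differ in position, and whether any match had a part in these changes was not tested.

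The libraries held 27742562 to 37551194 counts on genes, and LINC01133 was at 25.1, 25.3 and 25.9 CPM in the control libraries against 4.01, 4.05 and 4.28 CPM in the knockdown libraries, 16.2% of the control mean. CPM are counts relative to the total of the library after TMM scaling, on one scale for all libraries. A gene is called changed where edgeR's quasi-likelihood test gave a Benjamini-Hochberg adjusted p under 0.05 over all genes tested, and differentially expressed (DE) where the fold change was also over 1.5. With these thresholds 48.3% of all genes tested were changed, 23.3% higher and 25% lower in knockdown, and 11.7% were DE. Control 2 stood apart from the other control libraries, with chi-square values per degree of freedom of 11.9 and 13.1 against controls 1 and 3, compared to 3.75 between controls 1 and 3 and at most 3.5 between knockdown libraries.

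Of the 5 genes tested, NR3C1 fell, STS rose, and ESR1, PGR and NR3C2 did not pass the test. None of the 5 was DE with edgeR's quasi-likelihood test, although the same 2 passed at an unadjusted p under 0.05, and DESeq2 also called 2 changed and 0 DE. A share of 2 in 5, or 40%, is near the 48.3% of all genes tested. The remaining 4 genes were below the filter on low counts: CYP19A1 and HSD17B2 had no count in any library, ESR2 had 2 counts in all, and HSD17B1 had 44.

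**Figure D1:**
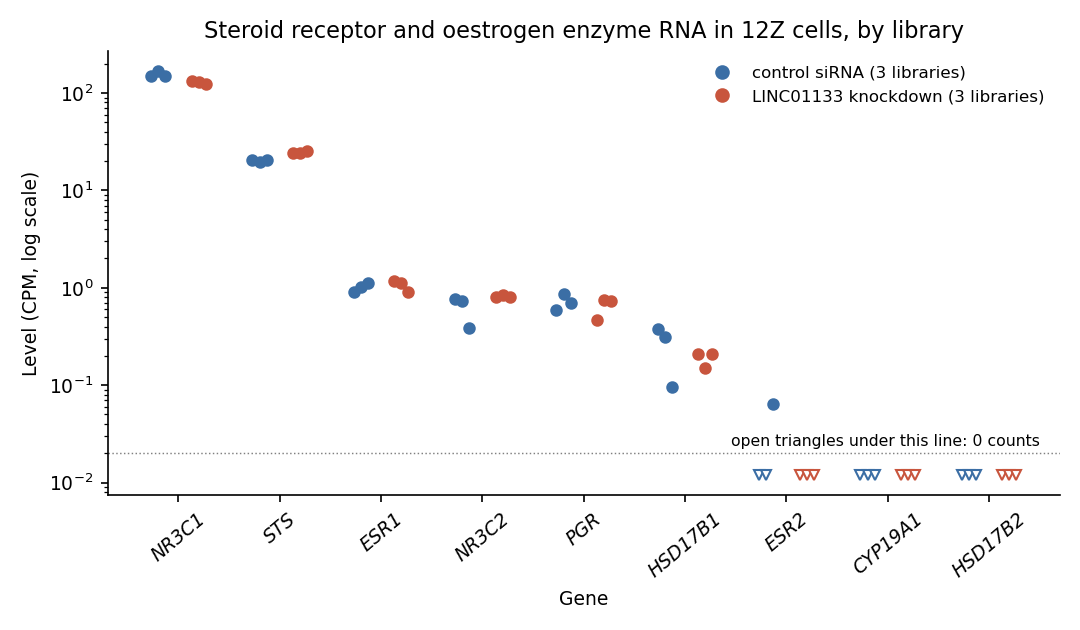
Level of the 9 genes in each library, in CPM on a log scale, with 3 control siRNA libraries in blue and 3 LINC01133 knockdown libraries in red. Open triangles under the dotted line are libraries with 0 counts and have no value on the axis. NR3C1 lies between 125 and 169 CPM, STS between 19.6 and 25.2 CPM, and the other genes near or below 1 CPM.

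NR3C1 (ENSG00000113580.15, GRCh38 chr5:143277931-143435512, minus strand) was the most abundant of the 9 transcripts. Control libraries stood at 149, 169 and 151 CPM and knockdown libraries at 133, 128 and 125 CPM, from 3557 to 5096 counts a library. Every knockdown library was below every control library, and the highest value was in control 2. The mean went from 156 ± 10.7 CPM to 129 ± 4.23 CPM (SD, n = 3), 82.3% of control. The log2 fold change was -0.28 (SE 0.0487, adjusted p = 0.00037, edgeR's quasi-likelihood test), and the 95% interval of the fold, 0.766 to 0.886, lay short of the DE cutoff. Without control 2 the log2 fold change was -0.22 (adjusted p = 5.6e-05).

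Per length, in CPM per kilobase of merged exons, the level of NR3C1 was 13.6 to 18.4, above 80.7% of the genes tested. Over the 5 steroid receptor genes named above, NR3C1 made up 98.66%, 98.7% and 98.84% of the summed level per length in control and 98.37%, 98.18% and 98.28% in knockdown cells. In control cells its level per length was 231 times that of ESR1, 348 times that of PGR and 180 times that of NR3C2, and in knockdown cells 181, 316 and 113 times. In bulk RNA, fewer cells with a transcript and less of it per cell cannot be told apart. The 3 tested genes whose log2 CPM, centred per gene, lay nearest to NR3C1 over the 6 libraries were ZEB1, TOR1AIP2 and MICAL2. Their Euclidean distances were 0.0603, 0.0621 and 0.0633, and the median over all genes was 0.527. Being picked as the nearest, they had to lie below the median, so these distances are not a test of likeness.

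The oestrogen receptor gene ESR1 (ENSG00000091831.24, chr6:151656691-152129619, plus strand) was detected in each library at a low level. Its counts were 31, 29 and 35 in control and 45, 37 and 26 in knockdown cells, or 0.907, 1.01 and 1.12 CPM against 1.18, 1.11 and 0.911 CPM. The groups overlapped. The log2 fold change was 0.093 (SE 0.201, adjusted p = 0.73, edgeR's quasi-likelihood test), and the interval of the fold, 0.79 to 1.44, holds both a decrease and an increase. Its level per length, 0.0661 to 0.0859 CPM per kilobase, was above only 2.15% of genes tested. A further 49 counts, 19.4% of its stranded counts, lay on the opposite strand. Over genes tested the median of this share was 0.377% and the 95th percentile 49.4%.

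ESR2 (ENSG00000140009.18, chr14:64084232-64338112, minus strand) had 2 counts, both in control 3. On the opposite strand its locus had 60 counts, 7 to 12 in each library, so that 96.8% of the stranded counts did not have the orientation of the gene. SYNE2, which encodes a nuclear envelope protein, overlaps ESR2 on the opposite strand without sharing an exon base, and had 2839 to 5296 counts a library. Counted without regard to strand, ESR2 would have had 55 counts. ESR2 also shares 523 exon bases with ENSG00000214770, a noncoding gene on its own strand, where reads that cover both cannot be assigned.

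PGR (ENSG00000082175.15, chr11:101029624-101129813, minus strand) had 20, 25 and 22 counts in control and 18, 25 and 21 in knockdown cells. In CPM these were 0.585, 0.870 and 0.704 against 0.472, 0.750 and 0.736, with overlapping groups. The log2 fold change was -0.15 (SE 0.268, adjusted p = 0.67, edgeR's quasi-likelihood test) with a fold interval of 0.603 to 1.35, and it became 0.064 without knockdown 1. With 0.0321 to 0.0592 CPM per kilobase, PGR exceeded 0.853% of genes tested. Only 1 of its stranded counts lay on the opposite strand.

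NR3C2 (ENSG00000151623.15, chr4:148078762-148444698, minus strand) had 26, 21 and 12 counts in control and 31, 28 and 23 in knockdown cells. Its levels were 0.761, 0.731 and 0.384 CPM against 0.812, 0.840 and 0.806 CPM, so the groups did not overlap, but the difference did not pass the test. The log2 fold change was 0.39 (SE 0.265, adjusted p = 0.25, edgeR's quasi-likelihood test) with a fold interval of 0.879 to 1.94. Control 3 carried most of it: without that library the log2 fold change was 0.135 (adjusted p = 0.70). Groups did not overlap for NR3C1, STS and NR3C2, that is 3 of 5, and for 57.3% of all genes tested. Per length, ESR1, PGR and NR3C2 all lay in the lowest 3.91% of genes tested, and their ranges over the 6 libraries overlapped between NR3C2 and ESR1 and between NR3C2 and PGR, but not between ESR1 and PGR.

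**Figure D2:**
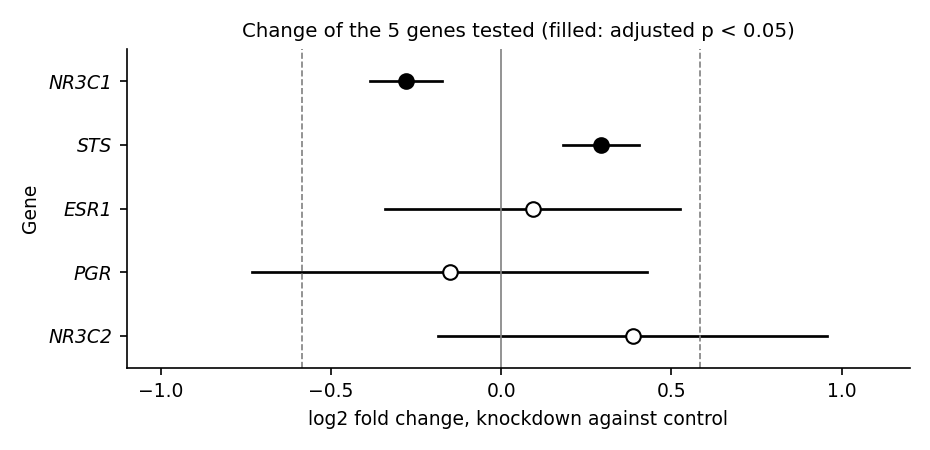
Log2 fold change of LINC01133 knockdown against control for the 5 genes tested, with 95% intervals as bars, filled points where the adjusted p was under 0.05, and dashed lines at a fold change of 1.5 in either direction. The intervals of NR3C1 and STS exclude 0 and stay inside the dashed lines, while those of PGR and NR3C2 cross 0 and a dashed line and that of ESR1 crosses 0 only.

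Among the enzymes, STS (ENSG00000101846.8, chrX:7147237-7804358, plus strand) was the only one tested. A degenerate copy of STS lies on the Y chromosome, and only uniquely mapped reads were counted. Control cells had 20.4, 19.6 and 20.3 CPM and knockdown cells 24.3, 24.4 and 25.2 CPM, from 563 to 927 counts. All knockdown libraries were above all control libraries. The mean rose from 20.1 ± 0.433 CPM to 24.6 ± 0.498 CPM (SD, n = 3), 123% of control, with a log2 fold change of 0.29 (SE 0.0519, adjusted p = 0.00043, edgeR's quasi-likelihood test) and a fold interval of 1.13 to 1.32. Its level per length, 1.59 to 2.05 CPM per kilobase, was above 35.5% of genes tested and did not overlap the range of NR3C1 or of the other receptors.

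STS shares 31 exon bases at its start with PUDP, a phosphatase gene on the opposite strand. Counts on the strand opposite to STS were at 1.73, 1.15 and 1.47 CPM in control and 0.917, 0.960 and 0.982 CPM in knockdown cells, lower where STS was higher. PUDP itself fell (log2 fold change -0.62, adjusted p = 4.4e-06, edgeR's quasi-likelihood test). PUDP is named because it overlaps STS.

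CYP19A1 (ENSG00000137869.15, chr15:51208057-51338601, minus strand) and HSD17B2 (ENSG00000086696.11, chr16:82035004-82098534, plus strand) had 0 counts on either strand in each of the 6 libraries. Over 194269637 counts, 0 counts allow a level of up to 0.0154 CPM (3 counts), and within 1 library up to 0.0799 to 0.108 CPM. These limits cover counting error only. Aromatase and type 2 17β-hydroxysteroid dehydrogenase RNA were therefore not detectable at this depth in either group, and no change with knockdown could be measured.

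HSD17B1 (ENSG00000108786.11, chr17:42552922-42555214, plus strand) had 13, 9 and 3 counts in control and 8, 5 and 6 in knockdown cells on its own strand. On the opposite strand the same exons had 370, 320 and 341 counts against 413, 419 and 308. The opposite strand thus held 98% of the stranded counts. HSD17B1-AS1, an antisense noncoding RNA, shares 1578 exon bases with HSD17B1 and had 344 to 466 counts a library, with a log2 fold change of 0.051 (adjusted p = 0.61, edgeR's quasi-likelihood test). In the unstranded column HSD17B1 had only 18 counts over all libraries, since reads that cover both genes are set aside there. HSD17B1 is named as present only through these 44 counts, and what share of them is its own mRNA was not tested.

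**Figure D3:**
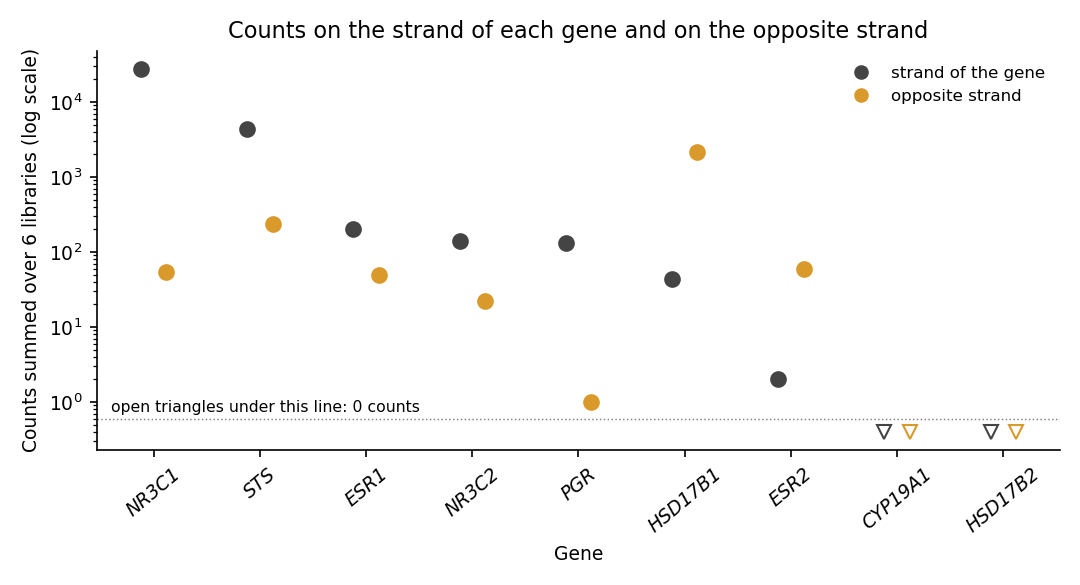
Counts summed over 6 libraries, on a log scale, on the strand of each of the 9 genes (dark grey) and on the opposite strand (orange), with points under the dotted line standing for 0. NR3C1, STS, ESR1, NR3C2 and PGR have most counts on their own strand, while HSD17B1 has 44 against 2171 and ESR2 has 2 against 60.

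The start sites of these genes also differed in base composition. RefSeq windows (GRCh38) from 250 bases before to 50 after a start site were listed for 7 of the 9 genes, 37 windows in all, and the ratio of observed to predicted CG dinucleotides was computed in each. The median over 35114 windows of all genes was 0.579. NR3C1 was above it in 5 of 7 windows, reaching 1.03, NR3C2 in 3 of 4, ESR2 in 4 of 5, ESR1 in 2 of 6 and STS in 1 of 5. PGR was below it in all 3 windows and CYP19A1, with no count, in all 7, at 0.492 or less. ESR2, with 2 counts, and NR3C1, with the highest level, were both mostly above the median, so the order of levels did not follow this ratio.

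The other genes of steroid signalling were taken from lists that together hold 130 genes, of which 91 were tested. Among the 91, 16 rose and 34 fell, 50 in all, and 18 were DE. Of the genes tested, 54.9% changed, 17.6% higher and 37.4% lower, beside 48.3%, 23.3% and 25% over all genes. The guide seed match of LINC01133a was present in 7 of these 18 DE genes, PAQR5, FDX1, SRD5A1, AKR1C1, NCOA3, CEBPB and CXCL12, and all 7 were lower in knockdown. Of the 18, however, all but PAQR6 and HSD17B8 were lower, with or without the match. Over all tested genes with a 3′ UTR, it was present in 29.3% of 857 DE genes that were lower, 9.98% of 511 that were higher and 16.5% of 11168 that were not DE, with median 3′ UTR lengths of 1832, 1098 and 1342.5 bases. The part of the match in these changes was not tested. The share of DE genes was 19.8% here and 11.7% among all genes tested, 5.3% higher and 6.43% lower. The lists were chosen with earlier results of these data known, so the difference between these shares is not a test of the lists.

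Of 10 other receptors that bind steroids or resemble oestrogen receptors, 8 were tested, and 4 rose and 3 fell (median log2 fold change 0.053, against 0.003 over all genes). The 4 membrane progestin receptors of the PAQR family on the list, PAQR5 to PAQR8, were DE, in different directions. PAQR5 was at 16.8, 20.4 and 12.6 CPM in control and 7.67, 8.79 and 6.80 CPM in knockdown libraries, with no overlap, 46.7% of control (log2 fold change -1.09, adjusted p = 4.3e-05, edgeR's quasi-likelihood test). PAQR8 (-0.77) and PAQR7 (-0.63) also fell on the log2 scale, and PAQR6 rose (0.84). PAQR7 fell short of the DE cutoff with library size scaling alone, at -0.568, and in the unstranded column, at -0.57. Per length, PGR had 0.049 CPM per kilobase in control and 0.0444 in knockdown cells, below each PAQR gene, of which PAQR6 in control (1.22) was the lowest. PGRMC2, a membrane-associated progesterone-binding protein, had a log2 fold change of 0.126 that passed the test but lost the call without control 1, knockdown 1 or knockdown 2 (adjusted p up to 0.12, edgeR's quasi-likelihood test), while PGRMC1 did not pass the test (-0.019). ESRRA, an orphan receptor related to the oestrogen receptors, rose by a log2 fold change of 0.43. Its levels were 16.5 to 19.3 CPM in control and 22.5 to 24.6 CPM in knockdown libraries. GPER1, the G protein-coupled oestrogen receptor gene, rose from a mean of 2.60 to 3.66 CPM (log2 fold change 0.50, adjusted p = 0.014, edgeR's quasi-likelihood test). Per length it was at 0.834 CPM per kilobase in control and 1.17 in knockdown cells, against 0.0737 and 0.0777 for ESR1.

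Of 16 enzymes and carriers of steroid synthesis, 5α-reductases among them, 9 were tested, and 2 rose and 5 fell, 4 of them DE, all lower (median log2 fold change -0.228). STAR, which carries cholesterol into mitochondria as the first step of steroid synthesis, was at 5.29, 5.71 and 5.06 CPM in control and 1.91, 1.74 and 1.51 CPM in knockdown libraries, 32.1% of control (log2 fold change -1.62, adjusted p = 4.3e-07, edgeR's quasi-likelihood test). HSD3B1, which makes progesterone and androstenedione from their precursors, was at 2.14, 2.58 and 2.11 CPM against 0.157, 0.180 and 0.666 CPM, 14.7% of control (log2 fold change -2.85, adjusted p = 1.3e-05, the same test). Neither gene's groups overlapped, and without knockdown 3, the highest of its group, HSD3B1 was at -3.722. Neither 3′ UTR held the guide seed match, and that of STAR held 1 match to the sense strand seed. HSD3B1 has near-identical copies, and only uniquely mapped reads were counted. FDX1, the electron donor of mitochondrial steroid hydroxylases, and SRD5A1, a 5α-reductase that acts on testosterone, fell to 59.6% and 58.6% of control. STARD3, a cholesterol transporter, rose (0.197 on the log2 scale), POR, the electron donor of microsomal cytochromes P450, fell (-0.228), and TSPO did not pass the test (0.026). The enzymes between these steps were near or at 0: CYP11A1, which cleaves the cholesterol side chain, had at most 0.0348 CPM, and CYP17A1 at most 0.0878 CPM.

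**Figure D4:**
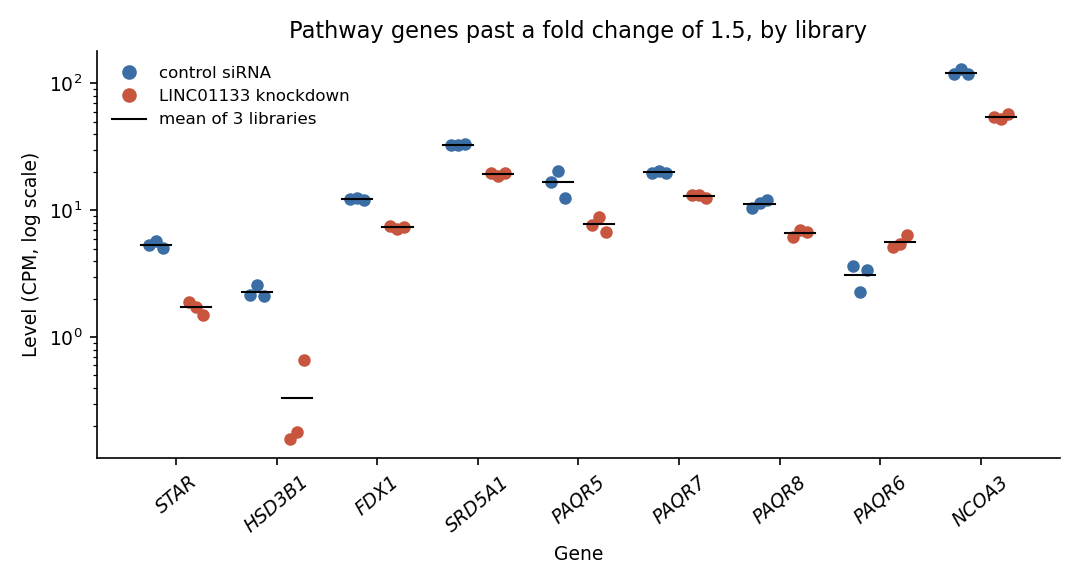
Level in each library, in CPM on a log scale, of the 4 DE genes of the steroid synthesis list, the 4 PAQR progestin receptors and the coactivator NCOA3, with control libraries in blue, LINC01133 knockdown libraries in red and bars at group means. STAR, HSD3B1, FDX1, SRD5A1, PAQR5, PAQR7, PAQR8 and NCOA3 are lower and PAQR6 higher in all 3 knockdown libraries than in all 3 control libraries.

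Of 28 other genes that interconvert, conjugate, transport or break down oestrogen, 17 were tested, and 3 rose and 4 fell (median log2 fold change 0.046). HSD17B8, a 17β-hydroxysteroid dehydrogenase that can inactivate oestradiol, was the single DE gene, at 0.702, 0.487 and 0.769 CPM in control and 1.02, 1.23 and 1.09 CPM in knockdown libraries (log2 fold change 0.75, adjusted p = 0.015, edgeR's quasi-likelihood test). That call did not hold with DESeq2 or without control 2 or knockdown 2, where the adjusted p reached 0.083. Other HSD17B genes were far more abundant than HSD17B8. Mean levels of HSD17B4, HSD17B12 and HSD17B10 were 230, 64.1 and 50 CPM in control and 227, 64.2 and 53.3 CPM in knockdown libraries. These did not pass the test, while HSD17B11 fell from a mean of 23.9 to 19.4 CPM (log2 fold change -0.30). SLCO3A1 and SLCO4A1, which encode organic anion transporters, fell by 0.56 and 0.50 on the log2 scale, and PAPSS2, which makes the sulfate donor, fell by 0.22. SULT1E1, the oestrogen sulfotransferase that opposes STS, had 0 counts in all 6 libraries. CYP1B1, which hydroxylates oestrogen, was at 176 to 196 CPM in control and 181 to 200 CPM in knockdown libraries and did not pass the test, nor did the sulfate donor transporter SLC35B2 (0.085).

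Of 8 enzymes that activate or inactivate glucocorticoid and progestin, 4 were tested, and 1 rose and 2 fell. AKR1C1, which inactivates progesterone, was at 1.99, 2.54 and 1.28 CPM against 0.707, 0.690 and 0.736 CPM (log2 fold change -1.44, adjusted p = 0.00041, edgeR's quasi-likelihood test). AKR1C3, which can make testosterone and oestradiol, fell by 1.08 on the log2 scale (adjusted p = 0.027, the same test) with overlapping groups, and that call was lost with DESeq2 and without any 1 of 5 libraries (all but control 3), with an adjusted p of up to 0.11. AKR1C genes are near-identical copies and only uniquely mapped reads were counted, so their levels are uncertain. H6PD, which supplies the cofactor of HSD11B1, had a log2 fold change of 0.131 that passed the test with overlapping groups, and the call was lost in 6 of 13 alternatives (adjusted p up to 0.18). HSD11B1, which makes cortisol from cortisone, had 0 counts, and HSD11B2, which inactivates cortisol, had 0.352 to 0.585 CPM and did not pass the test.

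All 10 chaperones of unliganded receptors were tested, and 1 rose and 6 fell, none past the DE cutoff (median log2 fold change -0.206). HSP90AB1 and HSP90AA1, the HSP90 proteins that hold the glucocorticoid receptor ready for hormone, had log2 fold changes of -0.35 and -0.25, HSPA8 -0.22, the p23 gene PTGES3 -0.30 and DNAJB1 -0.28. NR3C1, at -0.28, lay within the range of these genes, which were named for their change or level. The rest of the list lay outside that range, from -0.19 (STIP1) to 0.14 (PPID).

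Of 16 coactivators and corepressors, 15 were tested, and 2 rose and 3 fell (median log2 fold change 0.013). NCOA3, a coactivator of oestrogen receptor and other nuclear receptors, was at 118, 129 and 118 CPM in control and 54.1, 52.6 and 57.0 CPM in knockdown libraries, 44.9% of control (log2 fold change -1.16, adjusted p = 1.5e-09, edgeR's quasi-likelihood test). The NCOA3 3′ UTR held 3 matches to the guide seed of LINC01133a, at chr20:47654136-47654162, chr20:47655717-47655743 and chr20:47656446-47656472 (GRCh38, plus strand), printed with the match in capitals because this gene had the lowest adjusted p of the coregulators.
NCOA3 site 1: ttatttaaaaAGAATGGataaatgcaa
NCOA3 site 2: ggggagaaatAGAATGGtgctcttatc
NCOA3 site 3: gaaagtaaacAGAATGGattgccagtt

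PPARGC1B, a coactivator of ESRRA, fell with a log2 fold change of -1.05, and NRIP1, a corepressor that oestrogen induces, with one of -0.45. Neither held a guide seed match in its 3′ UTR, and PPARGC1B held 1 match to the sense strand seed. PRMT1, MED1 and SAFB, the most abundant coregulators per length, did not pass the test. Of 16 transcription factors known to control aromatase or receptor genes, 10 were tested, and 1 rose and 4 fell: WT1 (log2 fold change -0.62), CEBPB (-0.73), NR2F1 (-0.57) and GATA6 (-0.39). CEBPB fell short of the DE cutoff without control 1, at -0.577, and WT1 with library size alone, at -0.562. NR5A1, the main activator of aromatase in endometriotic stroma, had 0 counts.

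Of 14 genes used as readouts of the glucocorticoid receptor, 10 were tested, and 1 rose and 4 fell (median log2 fold change -0.079). KLF9 fell from 233 to 242 CPM in control to 150 to 159 CPM in knockdown libraries (log2 fold change -0.64, adjusted p = 3.2e-08, edgeR's quasi-likelihood test), and was short of the DE cutoff with library size alone, at -0.576. NFKBIA (-0.29) and the metallothionein MT2A (-0.24) also fell, and ERRFI1 rose (0.30). DUSP1, the last of the 4, was at -0.11 and lost its call in 6 of 13 alternatives (adjusted p up to 0.35), among them library size alone and leaving out control 1 or any knockdown library. CEBPD did not pass the test (0.037). FKBP5, a chaperone and itself a standard readout of glucocorticoid, was at 70.2 to 81.4 CPM in control and 72.7 to 76.8 CPM in knockdown libraries and did not pass the test. The readouts thus did not share one direction with NR3C1.

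Of 14 genes used as readouts of the oestrogen receptor, PGR itself among them, 10 were tested, and 1 rose and 4 fell (median log2 fold change -0.152). IGFBP4, which binds insulin-like growth factors, was at 399, 410 and 382 CPM in control and 129, 128 and 132 CPM in knockdown libraries, 32.7% of control (log2 fold change -1.61, adjusted p = 1.3e-11, edgeR's quasi-likelihood test). The chemokine CXCL12 fell to 26.8% of control and XBP1 rose by a log2 fold change of 0.16, while MYC did not pass the test (-0.031). TFF1 had 0 counts and GREB1 at most 0.21 CPM, both of them genes that oestrogen induces strongly in cells with abundant ESR1. These lists overlap in part and each gene answers to other signals too, so a count in them is not a measure of receptor activity.

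**Figure D5:**
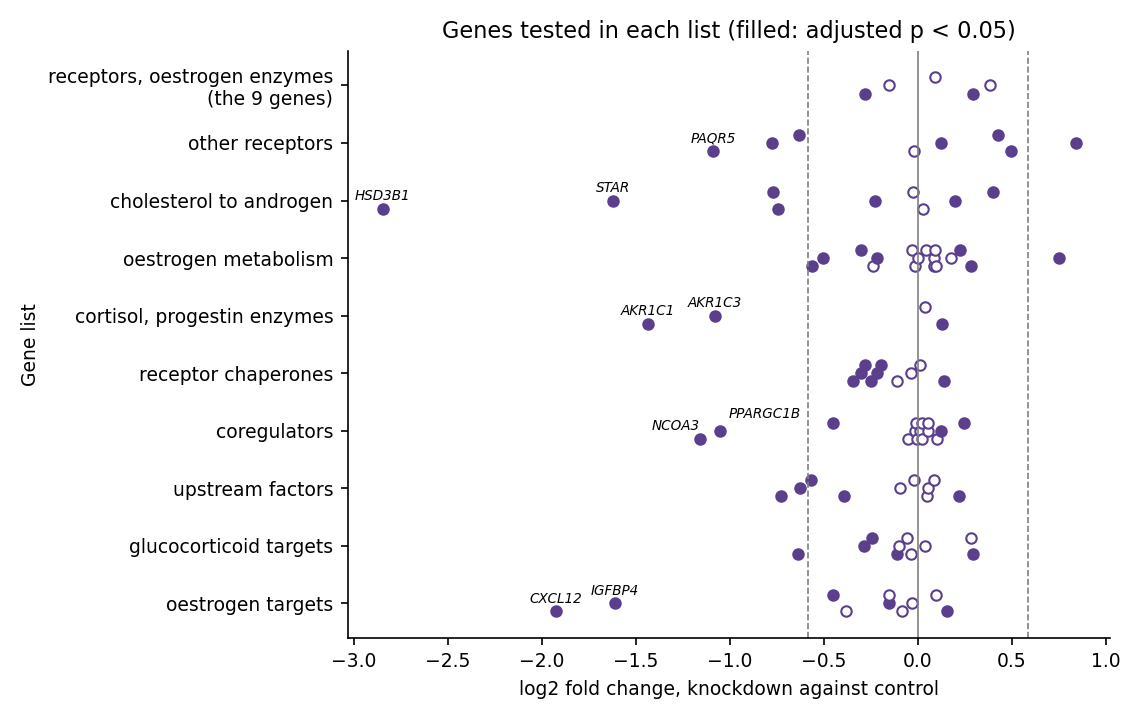
Log2 fold change of each tested gene, 1 point a gene in each list, in the 9 genes described here and in 9 lists of related genes, with filled points where the adjusted p was under 0.05 and dashed lines at a fold change of 1.5. PGR is plotted both among the 9 genes and among the oestrogen targets. The 5 tested genes lie inside the dashed lines, while genes past a log2 fold change of -1 are in the lists of other receptors, steroid synthesis, cortisol and progestin enzymes, coregulators and oestrogen targets. The steroid synthesis row is labelled cholesterol to androgen, but not all of its genes are on that route.

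The labelled cell type was checked against its markers. The keratins KRT8 (3140 to 3294 CPM in control libraries) and KRT19 (1208 to 1279 CPM) were abundant, whereas the epithelial markers EPCAM (0.288 to 0.681 CPM), CLDN3 and ESRP1 (at most 0.09 CPM) were near 0, and the mesenchymal genes COL1A1 (2555 to 2963 CPM) and VIM (1595 to 1654 CPM) were abundant too. Of 10 epithelial markers, 8 were tested and 5 fell (CDH1 to 24.8% of control, KRT7, KRT8, KRT18 and KRT19), and their summed level went from 6200 to 6540 CPM in control to 3969 to 4152 CPM in knockdown libraries. Of 11 stromal markers, 7 fell and 1 rose, from a sum of 5526 to 6156 CPM to 4696 to 4950 CPM. Of the stromal markers PDGFRA fell to 34.9% and CDH2 to 44.6% of control, MME rose to 176%, and the fall of LUM (-0.123) did not hold in 5 of 13 alternatives, library size alone and leaving out any 1 of 4 libraries. Of 7 endothelial and leukocyte markers, 2 fell (KDR and CD14), with sums of 97.25 to 104.5 and 55.71 to 58.96 CPM, while VWF did not pass the test, CD3E was at 0 and PECAM1 and CD68 were at or below 0.104 CPM. These markers moved in the same comparison as NR3C1 and STS, and their part in the result was not tested. In follow-up assays the study found the fall of CDH1 again but could not reproduce that of KRT7 and KRT19. It reported lower CDH2 RNA with LINC01133a, and no change with LINC01133b, a less efficient siRNA.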

How the data were processed

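The authors aligned paired reads to GRCh38.p13 with STAR 2.7.6a (GENCODE 36), kept uniquely mapped reads, and deposited whole-number counts per gene for each of 6 libraries, unstranded and for either strand. Reads were converted with SAMtools 1.10, per the submitters' processing notes. The kit is described as TruSeq in the methods and NEB in the labels. Used here was the column of reads whose first mate lies antisense to the gene (93.9% to 94.1% of stranded counts), and 4 rows of totals were left out.

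Counts were filtered with filterByExpr (minimum count 10), scaled by TMM and tested with edgeR 4.0.16 (R 4.3.3, quasi-likelihood, group only, Benjamini-Hochberg adjustment), after the functions were tested on simulated data. The study's cutoffs were kept, fold change over 1.5 and adjusted p under 0.05. Alternatives were DESeq2 1.42.0, other scaling and filters, the unstranded column, a replicate block and leaving out each library. Positions, lengths and 3′ UTRs came from GENCODE 44, which matched 60419 of 60660 gene IDs, as did the transcript sequences, and the siRNA was read from the study's oligonucleotide list. The gene models used for counting may differ from these.

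The genes and lists were chosen with earlier results of these data known. From each list the text names DE genes, the 3 tested genes with the largest absolute log2 fold change among those changed, and the 3 with the highest level per length, besides the 9 genes, LINC01133, genes at or near 0, and the 3 genes nearest to NR3C1. Overlapping genes (PUDP, SYNE2, HSD17B1-AS1), FKBP5, STIP1, PPID, GPER1, HSD17B4, HSD17B10, HSD17B11 and HSD17B12 were named outside this rule, after their values were seen. The study calls the 3 libraries of a group biological replicates.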

Additional observations from a re-analysis of the deposited data

How the results depend on the processing

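NR3C1 fell and STS rose under all 13 alternatives, each past the adjusted p threshold and neither DE, with log2 fold changes of -0.313 to -0.216 and 0.272 to 0.354. Deviations of same-numbered libraries correlated at -0.015, 0.005 and 0.057, so the numbers were not treated as pairs. With the replicate block the values were -0.278 and 0.293, and the block changed no call among the 9 genes. Over 69 of the named genes and these alternatives, 854 of 896 values kept their direction and side of the threshold. Of the rest, 29 lost the call, 3 gained it and 10 turned. The calls of GPER1, HSD17B11, STIP1 and PPID were not followed singly. With library size alone PGRMC1 was 0.043 and MYC 0.031, and in the unstranded column HSD11B2 was -0.024. Leaving out single libraries turned PGR (-0.288 to 0.064), TSPO (-0.006 to 0.057), HSD11B2 (-0.125 to 0.257), MED1 (-0.025 to 0.056), CEBPD (-0.054 to 0.125) and MYC (-0.054 to 0.009). None of these genes passed the test, and the cause was not tested. Library size alone also moved the share of DE genes that were higher from 45.2% to 55.9%. HSD3B1 had no value under a minimum of 10 counts in every library. Depth limits ESR1, PGR, NR3C2, HSD17B1 and ESR2, which had at most 45 counts a library.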
